A study of Saposhnikovia divaricata with 9 samples.

Results

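A set of 21 transcript clusters in leaves of the umbellifer Saposhnikovia divaricata, grown for its medicinal root, was present at similar levels in the groups coded C and M and nearly lost in the group coded L. The 21 clusters were chosen from the 63753 in the table by their FPKM values, that is, fragment numbers scaled for cluster length and library size. A cluster was taken where (M mean + 1)/(C mean + 1) lay from 0.67 to 1.5, where the lowest of its 6 C and M values was at least 20 FPKM and at least 8 times its highest L value plus 1, and where the C mean was below 1000 FPKM. The first conditions, which concern C and M alone, were met by 3103 clusters, called steady clusters here, and the members are 0.677% of them. All 9 libraries took part in this choice, so the differences of L from C and M within the set, and those between C and M, are described without a test.

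The study sequenced poly(A) RNA from leaves in 9 libraries, 3 each of C, M and L. Its design text names control plants 48 days old and cold at 4 °C for 6 h or 48 h, without tying a code to any of these, and the labels do not say either. Groups are therefore named by their codes, and none is called treated or control. Replicates carry the numbers 1 to 3, with no statement that they came from separate plants, and no genotype, accession or growth condition is given for any group. The labels' protocol names an animal tissue, which cannot describe these leaves. Marker genes for leaf tissue could not be checked, because the table gives cluster identifiers with no names or sequences. For the same reason no function, pathway or sequence is given for any member.

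As background, leaves that meet cold are known, mainly from work in Arabidopsis, to change their transcripts in waves. Regulators such as the CBF transcription factors are raised early and induce protective genes, and transcripts for growth and photosynthesis are often lowered later. In a bulk leaf sample, a lower level of a transcript can mean less of it per cell or fewer of the cells that make it, and these cannot be told apart here. FPKM is also a relative unit, so each value is a part of its library.

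Cluster-17261.29543 had the smallest ratio of L mean plus 1 to C mean plus 1, the measure by which members are ranked here, and it was also the member most abundant in C. C replicates 1 to 3 held 332.16, 535.96 and 421.1 FPKM of it, and M replicates 1 to 3 held 346.8, 336.08 and 279.01 FPKM. Its values in L were 0.57, 0.91 and 1.08 FPKM. The C and M values of this cluster overlapped, and the L libraries lay far below all 6 of them. The means were 429.7 ± 102.2 FPKM in C, 320.6 ± 36.4 in M and 0.853 ± 0.260 in L (SD, n = 3), so that L kept 0.199% of the C level. In rank it moved from the top 1% of clusters listed above 0, at percentiles between 99.3 and 99.7 in C and M, to percentiles of 27.3, 38.1 and 37.3 in the L libraries.

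The next most abundant member in C was Cluster-17261.23913, ranked 3 by the size of its loss. Its C values were 228.28, 378.49 and 277.28 FPKM and its M values 204.89, 231.17 and 197.48 FPKM. In the L libraries it was at 3.17, 1.2 and 2.02 FPKM. As in the first cluster, C replicate 2 was the highest library and the C and M values overlapped. The L mean of 2.13 ± 0.990 FPKM was 0.723% of the C mean of 294.7 ± 76.6 FPKM (SD, n = 3).

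The cluster ranked 2 kept 0.195% of its C level, slightly less than the cluster ranked 1 when nothing is added to the means, and was far less even among replicates. It was at 100.57, 533.67 and 190.37 FPKM in C and at 339.17, 305.47 and 128.39 FPKM in M. Its L values were 0.55, 0.91 and 0.15 FPKM, the lowest L mean of the set at 0.537 ± 0.380 FPKM (SD, n = 3). C replicate 2 lay far above both other C libraries, and the coefficient of variation of this cluster within C, 83.2%, was the largest among the members.

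**Figure D1:**
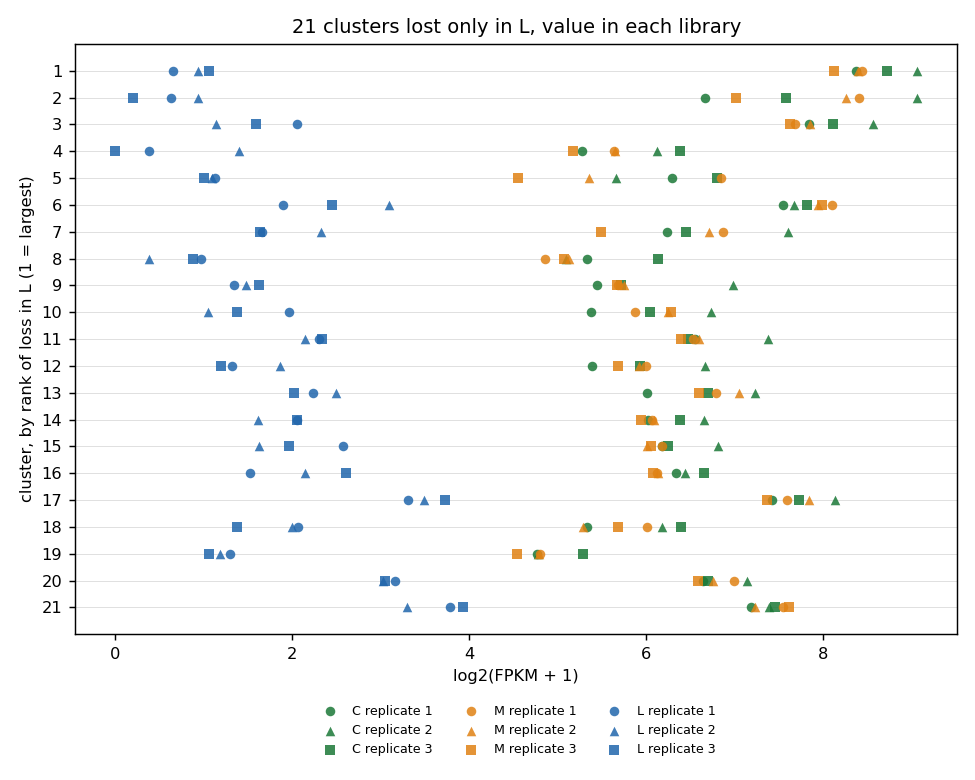
Level of each of the 21 clusters in each library, as log2(FPKM + 1) on the horizontal axis, with clusters in rows from the smallest ratio of L mean plus 1 to C mean plus 1 (rank 1) to the largest (rank 21) and colours for the groups C, M and L. The L values lie apart on the left in every row, as the choice of clusters requires. C and M points overlap in 18 rows, with every C point above every M point in 2 rows and the reverse in 1. The share of steady clusters with such orders was not counted. C replicate 2 is the highest C point in 13 rows, against 32.9% of the steady clusters.

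Below these 3 clusters, whose L mean plus 1 was at most 1/64 of the C mean plus 1, the losses formed a continuous range. The clusters ranked 4, 5 and 6 completed the 6 members that fell to 1/32 or less on this scale. The cluster ranked 4 was listed at 0 in L replicate 3, at 0.3 in L replicate 1 and at 1.64 FPKM in L replicate 2, against 37.74, 68.75 and 82.84 FPKM in C and 48.74, 49.41 and 35.01 FPKM in M. That zero was the only one among the 63 L values of the set, and an exact 0 in a table of FPKM can be a failed estimate. The cluster ranked 5 was even in L, at 1.18, 1.14 and 1.01 FPKM, and uneven in M, at 114.64, 40.1 and 22.51 FPKM, where its coefficient of variation of 82.8% was the largest among the members. Its C values of 77.56, 49.47 and 111.04 FPKM lay within the range of M.

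The cluster ranked 6 had the highest ratio of M to C in the set. It was at 186.78, 203.7 and 225.67 FPKM in C and at 273.14, 246.31 and 252.97 FPKM in M, so that every M library lay above every C library, the single member with this order. In L it was at 2.72, 7.58 and 4.48 FPKM. Its M mean of 257.5 ± 14.0 FPKM was 52.3 times the L mean, and its C mean of 205.4 ± 19.5 FPKM was 41.7 times the L mean (SD, n = 3).

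The remaining 15 members, ranked 7 to 21, had C means between 30.2 and 220.9 FPKM and L means between 0.700 and 11.95 FPKM. The cluster ranked 17 was the most abundant of these, at 170.98, 280.06 and 211.58 FPKM in C, 191.91, 229.59 and 164.16 FPKM in M and 8.94, 10.22 and 12.24 FPKM in L. The cluster ranked 19 was the least abundant member, at 26.2, 26.54 and 37.96 FPKM in C, 26.87, 26.63 and 22.23 FPKM in M and 1.46, 1.28 and 1.09 FPKM in L. Both are present in all 3 groups, with the L values close together in each. The smallest loss, at rank 21, was that of a cluster with 145.22, 166.56 and 175.1 FPKM in C, 185.84, 149.77 and 195.87 FPKM in M and 12.81, 8.81 and 14.24 FPKM in L. This cluster had the highest L mean of the set, 11.95 ± 2.81 FPKM (SD, n = 3), which was 7.37% of its C mean.

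Most members were therefore low in L rather than absent from it. Every L value was below 1 FPKM in 2 members, below 2 FPKM in 6 and below 5 FPKM in 16, while 5 members had an L library at 5 FPKM or more. Of the 63 single L values, 10 were below 1 FPKM. In rank among clusters listed above 0 in a library, the members' values lay between the 89.1 and 99.7 percentiles in C and between the 88.5 and 99.5 percentiles in M. The L values had a median percentile of 55.1 and reached the 85.1 percentile. Ranks do not change when a library is multiplied by a factor, so this part of the description does not depend on such scaling.

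The members held 0.229%, 0.406% and 0.301% of all FPKM in the C libraries and 0.300%, 0.285% and 0.238% in the M libraries. In the L libraries they held 0.00805%, 0.00743% and 0.00808%. The L libraries were alike in this sum, and C replicates 1 and 2 differed more from each other than did any pair of M libraries.

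The order of C and M within the members depended on C replicate 2. The M mean was below the C mean in 18 of 21 members, against 69.4% of the steady clusters. Without C replicate 2 it was below in 11 of 21, against 67.6%. The ratio of M to C ran from 0.674 to 1.25 with the allowed range at 0.67 to 1.5, with all 3 C libraries in the mean. Every C library lay above every M library in 2 members, and the reverse held in 1. How often steady clusters have either order was not counted, so nothing is read from these numbers. In a linear model across all tested clusters (limma on log2(FPKM + 1), adjusted p below 0.05 and at least 2-fold), 0 of 21 members were called in M against C, where 12.9% of all tested clusters were called in either direction, and 0 had an adjusted p below 0.05 at any fold. The rule bounds this contrast, so nothing is read from the count. In the same model all 21 members were called lower in L than in C, where 30.5% of tested clusters were called lower, and all 21 were called lower in L than in M, where 25.7% were. The rule used these contrasts as well, and the counts are given only as a check of the choice.

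**Figure D2:**
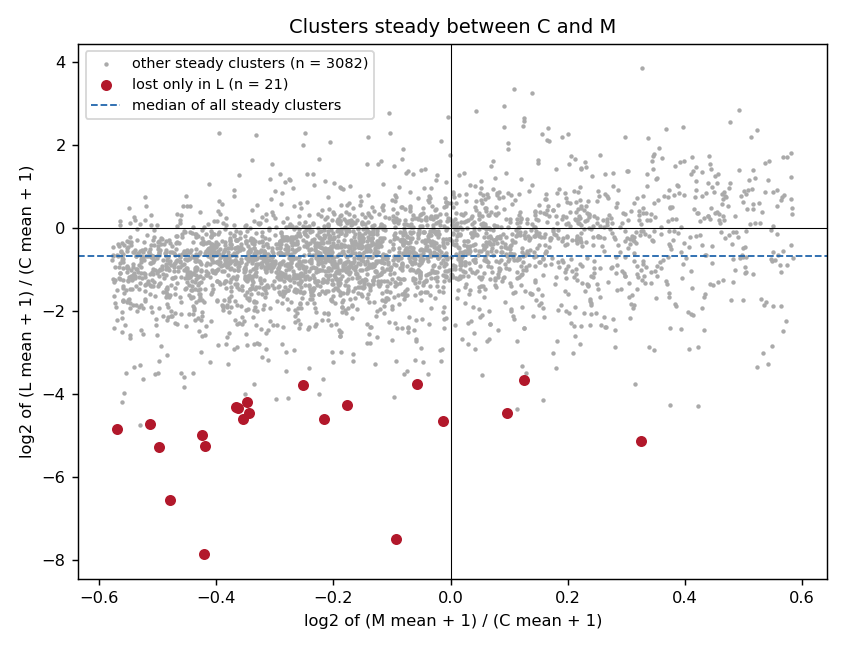
The 3103 steady clusters by log2 of (M mean + 1)/(C mean + 1) on the horizontal axis and log2 of (L mean + 1)/(C mean + 1) on the vertical axis, with the 21 members in red. The steady clusters have a median of -0.67 on the vertical axis, and the members lie between -7.86 and -3.66, low as the choice of clusters requires.

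The steady clusters show how far the members lie from clusters chosen by C and M alone, a distance that the rule itself asked for. L mean plus 1 was at most 1/8 of C mean plus 1 in 74 of them, or 2.38%, and at least 8 times C mean plus 1 in 3. At 1/16 or less there were 28 clusters, 18 of them members, and at 16 times or more there were 0. Losses and rises cannot be compared by these numbers, since the floor of 20 FPKM in C and M leaves out clusters that are low in C and M and high in L. All steady clusters together were lower in L, with a median log2 ratio of L to C of -0.67, and the members had a median of -4.60. Scaling changed how many clusters met the rule: it was 8 after scaling each library to the same median and 12 after quantile normalization, and all of those 8 and of those 12 were members. After median scaling a different set of 2582 clusters met the conditions on C and M, 19 of the members among them. Those 2582 had a median log2 ratio of L to C of 0.25, and the 21 members had one of -3.83.

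The edge of the set was not a gap. Of the 74 steady clusters with a mean loss of at least 8-fold on this scale, 53 were not members. In those 53 the lowest C or M value was between 2.59 and 7.75 times the highest L value plus 1. The member nearest to the limit of 8 was the cluster ranked 7, at 8.77, with 74.73, 193.84 and 86.75 FPKM in C, 115.65, 104.3 and 44.04 FPKM in M and 2.16, 4.02 and 2.12 FPKM in L. The cluster just outside, at 7.75, had 35.42, 21.08 and 31 FPKM in C, 34.47, 33.08 and 23.38 FPKM in M and 1.72, 1.57 and 1.49 FPKM in L. The member and the non-member nearest to the limit thus had L means of 2.77 and 1.59 FPKM.

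The other conditions excluded fewer clusters with such a loss. The lower bound on the ratio of M to C alone kept out 16 clusters, its upper bound 2, and the floor of 20 FPKM 5, while the limit on the C mean kept out 0. At the lower bound, the cluster ranked 8 was just inside with a ratio of 0.674, and one with a ratio of 0.663 was just outside, at 595.1 FPKM in C, 393.9 in M and 4.48 in L (means). At the upper bound the values were 1.25 for the cluster ranked 6 and 1.62 for the nearest one outside. At the floor, the lowest C or M value was 22.23 FPKM in the cluster ranked 19 and 16.82 FPKM in the nearest cluster outside.

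The choice was repeated with each library left out, so that its values could be read without having been used. Without L replicate 1 the rule took 27 clusters. In the library left out these were at 0.3 to 27.94 FPKM with a median of 3.14 FPKM, and 21 of the 27 kept the 8-fold distance there, against 1.22% of the clusters steady in C and M. Without L replicate 2 it took 26 clusters, of which 21 kept the distance in that library, against 1.64%, and without L replicate 3 it took 23, of which 21 did, against 1.35%. All 27, 26 and 23 clusters were at least 4-fold below the C mean in the L library left out (as value plus 1), against 7.99%, 11.1% and 9.96% of the steady clusters. The 21 clusters that kept the distance each time are by construction the members. Clusters chosen without an L library were thus also low in that library, with the same C and M libraries used on both sides.

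The C libraries gave a less even picture, with replicate 1 keeping the fewest. Chosen without C replicate 1, 23 clusters met the rule, and 15 of them were at 20 FPKM or more and at least 8 times the highest L value plus 1 in that library and also belonged to the members. The other 6 members then failed on the ratio of M to C. Without C replicate 2 there were 27 clusters, 18 of them members, and without C replicate 3 there were 23, 19 of them members. In the library left out, 25 of those 27 and 22 of those 23 met the same floor and distance. The shares of steady clusters that did so were 1.03%, 2.05% and 1.80% for C replicates 1 to 3. Among the M libraries, leaving out replicate 3 moved the number most, to 29 clusters with 20 of the members. C replicate 2 stood apart from the other C libraries across all tested clusters, with Spearman correlations of 0.858 and 0.869 against 0.943 between the other two.

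The spread between C replicates had a shared direction within the set, which the rule did not ask for. C replicate 1 was the lowest C library in 18 of 21 members and the highest in 0, against 36.8% and 29.7% of the steady clusters. C replicate 2 was the highest in 13 members and C replicate 3 in 8, against 32.9% and 37.4% of the steady clusters. For C replicate 3 the share of members, 38.1%, was thus near that of the steady clusters. C replicate 2 lay above C replicate 1 in 19 members and was at least 1.5 times as high in 14, against 48.3% and 8.93% of the steady clusters. The median log2 ratio of replicate 2 to replicate 1 was 0.71 in the members and -0.02 in the steady clusters. For C replicate 3 against C replicate 1, a comparison without the library that stood apart, it was 0.34 and 0.06, and for C replicate 2 against C replicate 3 it was 0.40 and -0.06.

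Within M the members were lowest in replicate 3 in 15 of 21 cases, against 44.4% of the steady clusters, and the differences were smaller. The median log2 ratio of M replicate 3 to M replicate 1 was -0.19 in the members and -0.05 in the steady clusters. Within L no library stood out, with the highest value in L replicate 1 in 9 members and in replicates 2 and 3 in 6 each. The median coefficient of variation was 35.0% within C, 11.4% within M and 33.6% within L for the members, against 13.9%, 10.0% and 16.1% for the steady clusters. The spreads within L belong to unlike levels, with a median L mean of 2.59 FPKM in the members and 33.8 FPKM in the steady clusters. Whether level accounts for the difference was not tested. Without C replicate 2 the value within C was 16.7%, against 10.0%. These values rest on fewer libraries, and the value without C replicate 1 or 3 was not computed.

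**Figure D3:**
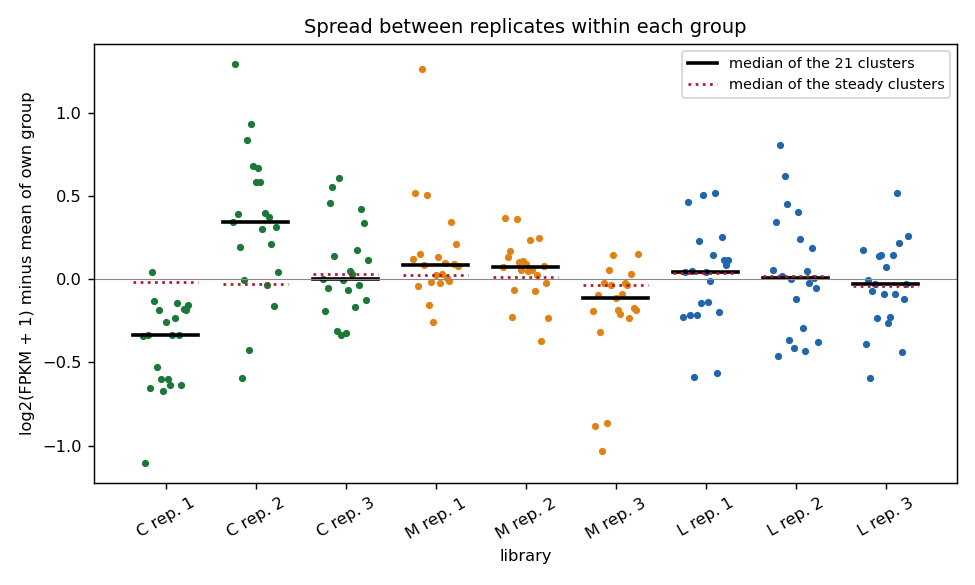
Each member's log2(FPKM + 1) minus the mean of its own group, by library, with the median of the 21 members as a black bar and that of the 3103 steady clusters as a dotted red line. The members have medians of -0.34, 0.35 and 0.00 in C replicates 1 to 3, while the medians of the steady clusters lie between -0.04 and 0.03 over the 9 libraries.

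The same direction was looked for in steady clusters that are not members. They were grouped by the ratio of L to M, and the ratio between C replicates was then read. The C libraries had no part in that grouping. Their values did have a part in calling a cluster steady and in leaving out the members. In 50 non-members whose L level was 3 or more log2 units below M, the median log2 ratio of C replicate 2 to C replicate 1 was 0.63 (quartiles 0.00 and 1.18). It was 0.14 in 165 clusters at 2 to 3 units below, 0.09 in 609 at 1 to 2 units below, -0.05 in 1508 at up to 1 unit below, and -0.06 in 750 that were higher in L than in M. For C replicate 3 against C replicate 1 the medians in the same order were 0.27, 0.14, 0.12, 0.05 and 0.04. For C replicate 2 against C replicate 3 they were 0.47, 0.11, 0.02, -0.07 and -0.10. With the members kept in, the group with the deepest loss held 71 clusters, with medians of 0.66, 0.32 and 0.44 for these ratios in turn. Steady clusters much lower in L than in M thus tended to be higher in C replicate 2 and lower in C replicate 1, with C replicate 3 between them, and the ratios that involve C replicate 2, the library that stood apart, changed more over these groups than the one that does not. Clusters of one library share its depth and its sample, so these values describe 3 C libraries and carry no test.

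**Figure D4:**
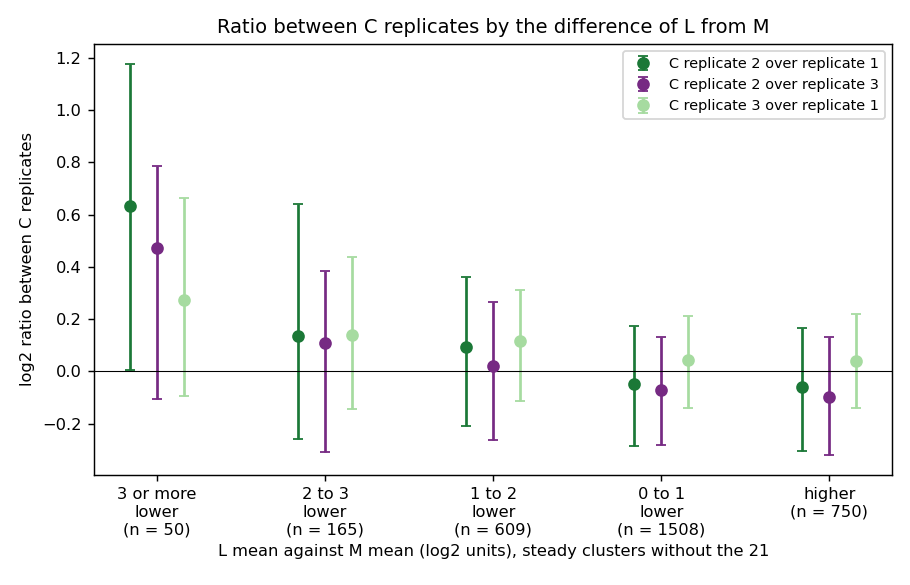
Steady clusters other than the 21 members, grouped on the horizontal axis by the difference of the L mean from the M mean in log2 units, with the median (point) and quartiles (bars) of the log2 ratio between C replicates on the vertical axis. The median ratio of C replicate 2 to replicate 1 runs from 0.63 in the group with the deepest loss to -0.06 in the group higher in L, that of replicate 2 to replicate 3 from 0.47 to -0.10 and that of replicate 3 to replicate 1 from 0.27 to 0.04.

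No sequence relation could be read from the identifiers. All 21 members carry the parent number 17261, as do 99.94% of the steady clusters and 69.8% of all clusters. Their numbers within that parent ran from 17972 to 29543, with quartiles of 22166 and 24994, against 20169 and 25331 for the steady clusters. The closest pair of members was 55 numbers apart. No member had a parent number of its own, so there were no clusters under a smaller shared parent to compare.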

How the data were processed

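Expression was measured by RNA sequencing in 9 leaf libraries. Per the file headers, the values the authors deposited are FPKM of each cluster in each library, given to 2 decimals. How reads were aligned, assembled, counted and annotated is not given in the sources used here. The FPKM of a library summed to between 863749 and 932785. Fragment totals are unknown, so no counting interval is given. Among clusters below 6 FPKM in every library and at 1 FPKM or more in both libraries compared, the most frequent ratio to C replicate 1 put the relative depth at 1.00 to 1.19, from 28 to 340 clusters at the peak against 11 to 43 in a typical window.

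The rule was applied with pandas 2.3.3 in Python 3.11.15. It found fewer than 300 clusters, so its limit was not used. Values were transformed to log2(FPKM + 1), and a model with 3 groups was fitted with an intensity trend (limma 3.58.1, R 4.3.3) to the 35314 clusters that reached 1 FPKM in 3 or more libraries. P-values were adjusted by the Benjamini-Hochberg method. The model was also run on simulated data with independent errors and planted losses. That run differs from these data and does not vouch for the calls made here. Since separate plants are not stated, p-values reflect no more than the spread between libraries, which may be technical.

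The members and the tests were chosen with earlier results of these data known. Identifiers printed are those of the member with the smallest (L mean + 1)/(C mean + 1) and of the next most abundant in C; others are given by rank of that ratio. The gene lists and tissue markers drawn up could not be matched to unnamed clusters and were not run. Same-numbered replicates did not deviate together, with correlations of deviations from group means between -0.060 and 0.031. Alternatives were other scalings, pseudocounts, filters, thresholds of the rule, a model with no trend, a replicate block and leaving out each library.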

Additional observations from a re-analysis of the deposited data

How the results depend on the processing

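The number of clusters that met the rule depended on its settings. It was 21 as reported, 87 with a fold of 4 and 5 with a fold of 16, 12 with a floor of 50 FPKM and 25 with a floor of 10 FPKM, 30 with 0.1 and 6 with 5 added in the ratios, 8 after median scaling and 12 after quantile normalization. A higher fold or floor makes the rule stricter by construction. The number added enters both the ratio of M to C and the L condition. With 5 added all 21 members still met the conditions on C and M, so those dropped failed the L condition, which a larger number makes stricter by construction. After median scaling 19 of the 21 members still met the conditions on C and M, and after quantile normalization 20 did. The cause of the changes with scaling was not tested. Leaving out 1 library gave between 22 and 29 clusters, with the lowest overlap, 15 of the 21 members, without C replicate 1. The limit of 300 did not apply, so the share of members with the parent number 17261 had no alternative.

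All 21 members were called lower in L against C and in L against M, and 0 in M against C, under each of the 17 alternatives of the limma fit, the 9 without a library included. With the replicate block these counts were also 21, 21 and 0, and the labels do not say whether same-numbered samples are paired. The rule bounds or uses these contrasts, so nothing is read from the counts. Over all tested clusters, 10780 of 35314 were called lower in L against C as reported. That number was 4803 with a pseudocount of 5, 5213 after median scaling and 12314 with a pseudocount of 0.1. The log2 fold change of Cluster-17261.29543 in L against C ran from -8.83 with a pseudocount of 0.1 to -6.19 with 5, and that of Cluster-17261.23913 from -7.11 to -5.37. The median coefficient of variation of the members within C was 35.0%, and 16.7% without replicate 2. It was not computed without another C replicate, so the spread cannot be assigned to replicate 2 alone. In alternatives chosen after seeing the data, the number of members with an M mean below the C mean, 18 as reported, lay between 11, without C replicate 2, and 19 when 1 C or M library was left out. Fragment counts are unknown, so differences between L values near 0 FPKM cannot be judged.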
